A study of Mus musculus with 12 samples.

Results

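The genes described here make, carry and load amino acids: enzymes of amino acid and folate-linked synthesis, plasma membrane amino acid transporters, and the cytosolic tRNA synthetases. They were taken by name from a list of 37 mouse symbols. Of these, 36 were found among the 28977 gene IDs of the table: 9 of 10 synthesis enzymes, 7 of 7 transporters and 20 of 20 synthetases. Phgdh was not analysed here. Synthetases are given by their older symbols (Aars for Aars1), and Mars1 was matched under Mars.

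Messenger RNA was sequenced from J774A.1 cells, a mouse macrophage-like line, that had met hypochlorous acid (HOCl), an oxidant made by the neutrophil enzyme myeloperoxidase. There were 4 groups of 3 libraries: cells given cell media, cells in Hanks' balanced salt solution (HBSS) with no HOCl, and cells in HBSS with HOCl at 20 µM or at 100 µM. Every group spent 1 h in its fluid and was then returned to full medium for 24 h. HBSS is the vehicle of both doses, and it holds no amino acids, whereas cell media does. The labels leave it unsaid whether replicates were grown as separate cultures, and p-values therefore measure the spread between these libraries, which may be technical.

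Cells sense a shortage of amino acids through uncharged tRNA, which activates the kinase GCN2. Phosphorylation of the initiation factor eIF2 then lowers bulk translation and raises translation of the transcription factor ATF4, which, with C/EBP partners, switches on transporters, synthesis enzymes and many tRNA synthetases. Other stresses reach ATF4 through other eIF2 kinases, and the whole is called the integrated stress response.

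The values were FPKM, read density scaled by exon length and library size. The length was that of all annotated exons of a gene together, from 2447 to 18102 bases over the members. Where cells use only part of these exons, FPKM understates the level, so levels of different genes compare only roughly. The reads behind the FPKM values numbered between 17683934 and 21408526 per library. All 8 macrophage markers were present, among them Lyz2 and Cd68, while markers of T, B, epithelial, fibroblast and endothelial cells stayed at or below 0.435 FPKM and S100a8 was the single neutrophil marker above that level. Replicates 1 and 2 of cell media stood apart: Pearson's r of log2 values was 0.988 between the pair, 0.946 to 0.971 between either and the remaining 10 libraries, and 0.974 to 0.993 within those 10. Tests were therefore read on all 12 libraries and on the 10 without this pair. In RNA from bulk cells, fewer cells of a kind and less RNA per cell cannot be told apart.

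The ATF4 and C/EBP partners bind a composite element whose core is often written TGATGNAA, where N is any base. Those letters were searched on both strands in windows of 300 bases, from 250 before to 50 after each annotated start, taken from RefSeq on the GRCm38.p6 build, which is not the GRCm39 build that the submitters' notes name. They occurred in 1304 of 32851 windows, or 3.97%. Counted by gene, 227 of the 8160 tested genes with a window (2.78%) held them. Of the 27 measured members with a window, 8 (29.6%) held them: Asns, Pycr1, Slc1a4, Aars, Gars, Iars, Tars and Yars. The members are of the kinds of gene that ATF4 switches on, so their share is not a result of these data. A match of letters is a description and not a site shown to be bound, and a window without a match says only that these letters are not in it.

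The windows of Asns (chr6:7693160-7693459, minus strand), Slc1a4 (chr11:20332664-20332963, minus strand), Aars (chr8:111033592-111033891, plus strand) and Iars (chr13:49681880-49682179, plus strand) are shown whole, because their genes stood lower at 100 µM HOCl, and that of Qars (chr9:108507755-108508054, plus strand) because it had no match and its gene stood higher. Because the genes were picked by their levels, these windows cannot show a link between letters and level. Slc38a2, Slc7a1 and Slc6a9 also stood lower at 100 µM (log2 differences −0.34, −0.29 and −0.27), and their windows held no match. Sequences run 5′ to 3′ on the strand of the gene, and capitals mark the match, which reads TTNCATCA where it lies on the opposite strand.
Asns: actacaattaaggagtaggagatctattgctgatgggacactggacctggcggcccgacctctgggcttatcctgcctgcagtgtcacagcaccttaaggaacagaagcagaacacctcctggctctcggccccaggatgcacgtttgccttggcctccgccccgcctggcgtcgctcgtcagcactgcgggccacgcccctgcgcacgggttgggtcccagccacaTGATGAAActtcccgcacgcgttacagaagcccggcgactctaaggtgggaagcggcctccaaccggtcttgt
Slc1a4: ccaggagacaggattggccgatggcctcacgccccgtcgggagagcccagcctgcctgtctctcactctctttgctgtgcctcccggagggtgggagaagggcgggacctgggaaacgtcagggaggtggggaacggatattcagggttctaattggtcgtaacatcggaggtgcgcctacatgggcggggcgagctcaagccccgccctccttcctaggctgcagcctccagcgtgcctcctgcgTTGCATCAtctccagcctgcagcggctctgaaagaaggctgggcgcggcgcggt
Aars: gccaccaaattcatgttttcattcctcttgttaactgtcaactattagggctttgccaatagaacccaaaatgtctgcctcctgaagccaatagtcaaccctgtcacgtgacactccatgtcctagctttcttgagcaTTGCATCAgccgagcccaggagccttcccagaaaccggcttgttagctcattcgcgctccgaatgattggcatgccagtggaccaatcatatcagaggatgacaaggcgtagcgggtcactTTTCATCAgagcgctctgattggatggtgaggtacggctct
Iars: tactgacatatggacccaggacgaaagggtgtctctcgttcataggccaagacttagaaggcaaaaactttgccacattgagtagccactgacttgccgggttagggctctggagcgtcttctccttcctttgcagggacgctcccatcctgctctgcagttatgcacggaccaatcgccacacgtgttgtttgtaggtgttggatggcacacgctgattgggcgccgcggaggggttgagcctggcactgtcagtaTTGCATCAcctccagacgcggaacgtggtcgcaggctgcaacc
Qars: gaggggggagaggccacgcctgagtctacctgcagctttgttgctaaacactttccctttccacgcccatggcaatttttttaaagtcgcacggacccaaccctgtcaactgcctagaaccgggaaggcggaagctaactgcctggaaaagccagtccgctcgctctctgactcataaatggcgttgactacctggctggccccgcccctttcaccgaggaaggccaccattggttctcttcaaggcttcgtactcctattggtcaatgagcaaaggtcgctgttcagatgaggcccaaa

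Asns, a classical ATF4 target, had its match at offset −23 from the start, and Slc1a4 at offset −4. Iars had it at offset 7, downstream of the start, and Aars had a match at offset −112 and another at offset 9. The stretch of 40 bases around the first match is shown for the other 4 members that held one, Pycr1 (chr11:120643828-120643867, minus strand), Yars (chr4:129189890-129189929, plus strand), Gars (chr6:55037955-55037994, plus strand) and Tars (chr15:11399650-11399689, minus strand), so that the flanks can be compared.
Pycr1: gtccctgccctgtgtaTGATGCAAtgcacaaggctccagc
Yars: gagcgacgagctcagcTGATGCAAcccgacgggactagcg
Gars: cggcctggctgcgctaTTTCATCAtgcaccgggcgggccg
Tars: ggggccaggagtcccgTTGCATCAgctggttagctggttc

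All 36 members were expressed and passed the filter of at least 1 FPKM in at least 3 libraries. Their order by FPKM depends on the annotated exon length and is approximate. In HBSS the highest was Gars, the glycyl-tRNA synthetase, at 207 ± 16.1 FPKM (SD, n = 3), followed by Nars, the asparaginyl-tRNA synthetase, at 157 ± 20.4 FPKM. Psat1 of serine synthesis (137 ± 4.09 FPKM) and Rars, which charges arginine (134 ± 5.04 FPKM), came next and did not differ beyond their spread. The mitochondrial folate enzyme Mthfd2 (119 ± 7.46 FPKM), Shmt2 (116 ± 6.30 FPKM), Sars (111 ± 12.6 FPKM) and Asns (109 ± 19.3 FPKM) formed a run of neighbours within their spread. The lowest were Psph, the last enzyme of serine synthesis, at 2.36 ± 0.162 FPKM, Pycr1, the last enzyme of proline synthesis, at 3.0 ± 0.426 FPKM, and the glycine transporter gene Slc6a9 at 4.33 ± 1.00 FPKM.

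The main comparison asked what 100 µM HOCl left behind after a day of recovery, against the vehicle. At 100 µM the transporter genes stood lowest relative to HBSS, with a median log2 difference of −0.27 over 7 genes. All 7 lay below 0, Slc1a5 so close to it that its sign carries no weight. Synthesis enzymes had a median of −0.080 (7 of 9 below 0) and synthetases a median of −0.064 (14 of 20 below 0). Over all members the median was −0.080, and 28 of 36 (77.8%) lay below 0, where 51.5% of the 12026 genes tested did and the median of all genes was −0.0063. No member passed the test (limma on log2(FPKM + 1) with 1 mean per group and no other term, Benjamini-Hochberg adjusted p under 0.05), on 12 or on 10 libraries. That outcome depends on the model: with replicate number as a block, members were called on 10 libraries but not on 12, as given in the closing section. The share called among all genes was 0% on 12 libraries and 0.241% on 10.

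**Figure D1:**
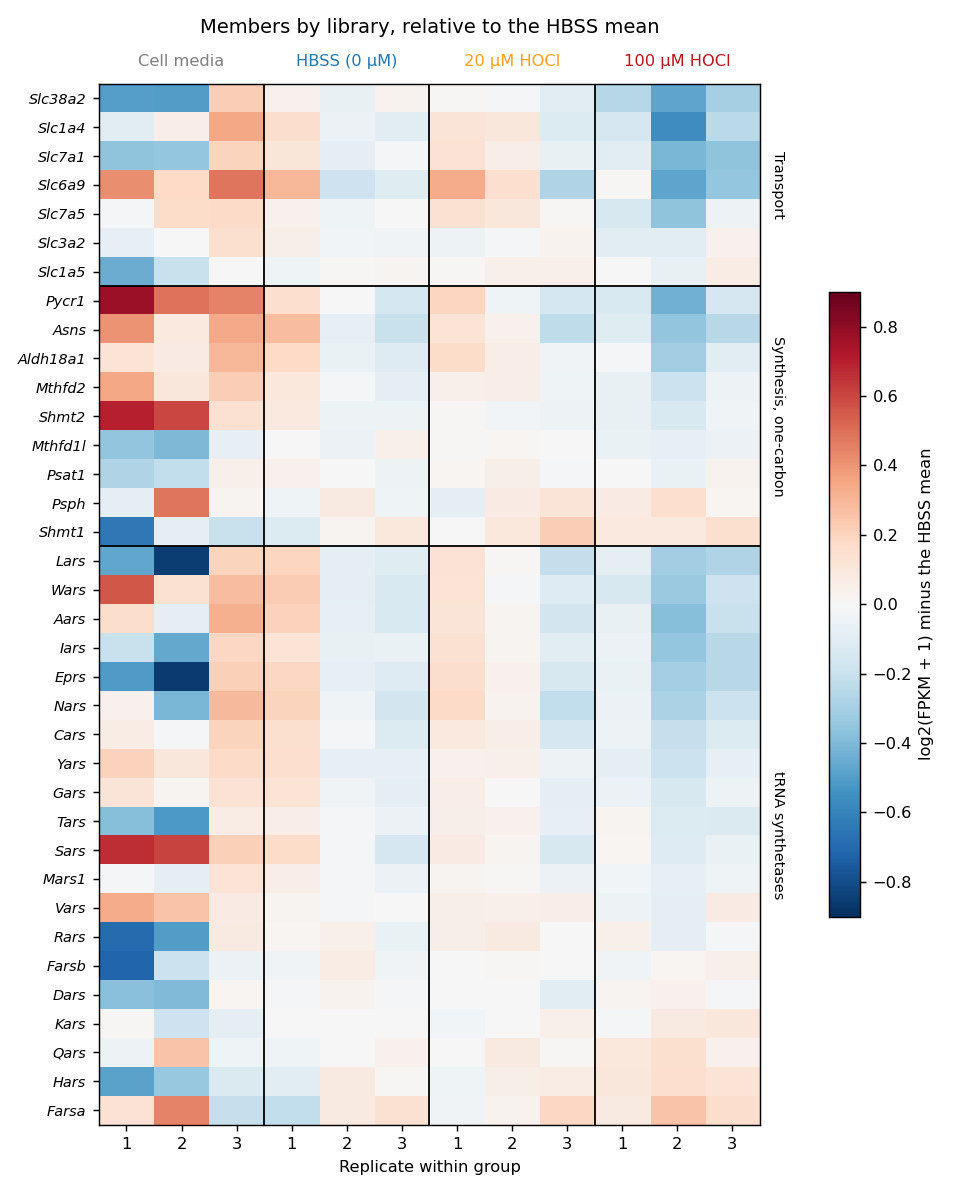
Level of each of the 36 members (rows, grouped by role) in each of the 12 libraries (columns, by group and replicate), as log2(FPKM + 1) minus the gene's mean in HBSS; blue is lower and red higher. The 100 µM columns are blue for most transporters and pale for most synthetases, and cell media replicates 1 and 2 hold the strongest colours of both kinds.

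Slc38a2, which encodes a sodium-coupled carrier of small neutral amino acids, measured 53.8, 46.0 and 52.1 FPKM at 100 µM, against 65.9, 61.3 and 65.8 FPKM in HBSS. Each library at 100 µM was lower than each in HBSS. The log2 difference was −0.34 (SE 0.165, adjusted p = 0.638 on 12 libraries by limma; SE 0.0633, adjusted p = 0.0546 on 10). The wider error on 12 libraries went with cell media, where the 3 libraries measured 45.3, 45.2 and 75.2 FPKM and enter the shared spread.

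Slc1a4, a carrier of serine, alanine and other neutral amino acids, measured 9.94, 7.27 and 9.31 FPKM at 100 µM, against 12.6, 10.7 and 10.3 FPKM in HBSS. The groups did not overlap, and replicate 2 of the treated cells was the lowest library. Its log2 difference was −0.32 (SE 0.139, adjusted p = 0.636 on 12 libraries; SE 0.117, adjusted p = 0.113 on 10, limma). Without replicate 2 at 100 µM it came to −0.20. It was the member with the smallest unadjusted p on 12 libraries (0.0445) and the single one below 0.05, where 7.76% of all genes were.

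Slc7a1, the main carrier of arginine and lysine, measured 23.7, 18.8 and 19.5 FPKM at 100 µM, against 27.3, 23.8 and 25.04 FPKM in HBSS. The groups were separate by a small margin, with treated replicate 1 just below HBSS replicate 2. Its log2 difference was −0.29 (SE 0.148, adjusted p = 0.653 on 12 libraries; SE 0.0926, adjusted p = 0.0910 on 10, limma), and −0.15 with the trend on exon length removed. Slc7a5, the light chain of the carrier of leucine and other large neutral amino acids, measured 59.1, 50.7 and 63.3 FPKM at 100 µM, against 67.3, 63.8 and 65.6 FPKM in HBSS. These groups were also separate, treated replicate 3 by less than 1 FPKM. The log2 difference of Slc7a5 was −0.19 (SE 0.0934, adjusted p = 0.650 on 12 libraries; SE 0.0765, adjusted p = 0.137 on 10, limma), and −0.098 without replicate 2 at 100 µM.

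The remaining transporters overlapped between the groups. Slc6a9 measured 4.31, 2.80 and 3.14 FPKM at 100 µM, against 5.48, 3.64 and 3.88 FPKM in HBSS, where replicate 1 was the highest of each group. Its log2 difference was −0.27 (SE 0.185, adjusted p = 0.675 on 12 libraries; SE 0.190, adjusted p = 0.337 on 10, limma). It came to −0.12 without HBSS replicate 1, −0.17 without replicate 2 at 100 µM and −0.41 without replicate 1 at 100 µM. In the annotation 30.3% of its exon bases lie over exons of opposite-strand genes, among them B4galt2, and whether counting used strand was not given in the sources used here. Slc3a2, the heavy chain that pairs with Slc7a5, measured 92.9, 93.0 and 102 FPKM at 100 µM, against 103, 97.8 and 97.2 FPKM in HBSS. Slc1a5, a glutamine carrier, measured 78.7, 75.4 and 82.9 FPKM at 100 µM, against 77.04, 79.6 and 80.3 FPKM in HBSS. The heavy chain and the glutamine carrier thus lay within the HBSS range or close to it. Summed over the 7 transporters, the level was 322, 294 and 332 FPKM at 100 µM, against 358, 341 and 348 FPKM in HBSS, with no overlap. The sums of the other roles overlapped. Synthesis enzymes summed to 539, 493 and 535 FPKM at 100 µM, against 606, 547 and 527 FPKM in HBSS. Synthetases summed to 1355, 1253 and 1310 FPKM at 100 µM, against 1478, 1363 and 1302 FPKM in HBSS. How often sums over other genes separate was not computed.

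**Figure D2:**
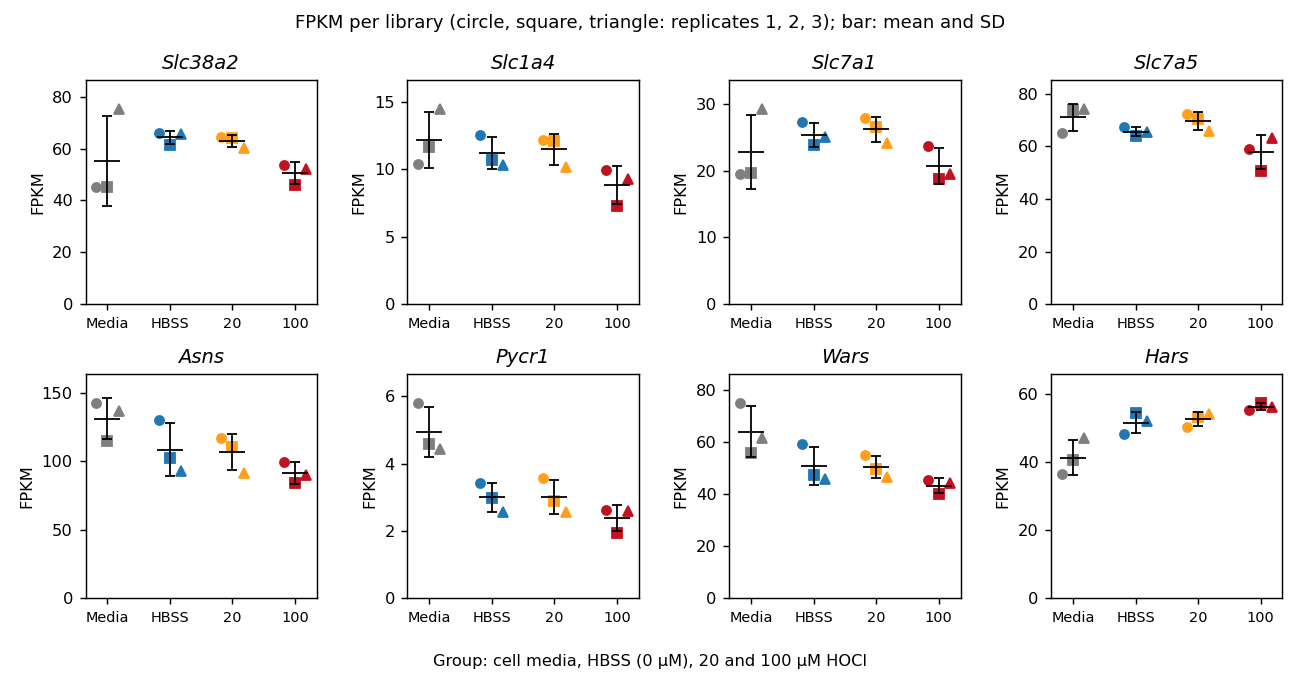
FPKM of 8 members in each library, with a panel for each gene; the x axis gives the 4 groups, the symbols replicates 1 to 3, and the bar the mean and SD. The 4 transporters in the top row sit lower at 100 µM than in HBSS in every library, Asns, Pycr1 and Wars show a spread within HBSS led by replicate 1, and Hars sits higher at 100 µM.

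Among the synthesis enzymes, Asns and Pycr1 had the largest differences. Asns, which makes asparagine from aspartate and glutamine, measured 99.86, 83.9 and 90.3 FPKM at 100 µM, against 130.3, 102 and 93.3 FPKM in HBSS. Pycr1 measured 2.62, 1.95 and 2.59 FPKM at 100 µM, against 3.43, 2.99 and 2.58 FPKM in HBSS. In both genes the lowest HBSS library lay within the treated range, and HBSS replicate 1 stood above the others. The log2 difference of Asns was −0.24 (SE 0.143, adjusted p = 0.669 on 12 libraries; SE 0.133, adjusted p = 0.240 on 10, limma). That of Pycr1 was also −0.24 (SE 0.134, adjusted p = 0.663 on 12 libraries; SE 0.122, adjusted p = 0.2005 on 10, limma). Without HBSS replicate 1 the difference of Asns came to −0.099, and without replicate 2 at 100 µM that of Pycr1 came to −0.14.

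Aldh18a1, which opens proline synthesis from glutamate, measured 43.3, 35.1 and 41.1 FPKM at 100 µM, against 49.7, 41.97 and 40.4 FPKM in HBSS, again with overlap. Mthfd1l, which releases formate from mitochondria, was the synthesis gene whose groups were separate: 19.2, 19.0 and 19.3 FPKM at 100 µM, against 20.1, 19.3 and 20.7 FPKM in HBSS, a gap that is small beside its spread in HBSS. Mthfd2, of the same folate branch, measured 113, 103 and 115 FPKM at 100 µM, against 127, 118 and 112 FPKM in HBSS. Shmt2, the mitochondrial serine hydroxymethyltransferase, measured 111, 105 and 114 FPKM at 100 µM, against 123.5, 113 and 113 FPKM in HBSS. Both overlapped. Psat1 averaged 136 ± 4.55 FPKM at 100 µM and 137 ± 4.09 FPKM in HBSS (SD, n = 3 each). Psph averaged 2.55 ± 0.173 FPKM at 100 µM and 2.36 ± 0.162 FPKM in HBSS, and the cytosolic Shmt1 10.9 ± 0.266 FPKM at 100 µM and 10.1 ± 0.842 FPKM in HBSS. Serine synthesis genes therefore showed no separation between the groups, and 10.4% of the exon bases of Psph lie over an opposite-strand gene, Cct6a.

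The synthetases spread to both sides of 0. Wars, which charges tryptophan, measured 45.5, 39.8 and 44.1 FPKM at 100 µM, against 59.2, 47.3 and 45.8 FPKM in HBSS. Yars, which charges tyrosine, measured 34.3, 31.8 and 34.5 FPKM at 100 µM, against 40.5, 34.6 and 34.5 FPKM in HBSS. The groups did not overlap in either gene, though in Yars replicate 3 of the treated cells lay only just below replicate 3 in HBSS. The log2 difference of Wars was −0.22 (SE 0.130, adjusted p = 0.666 on 12 libraries; SE 0.103, adjusted p = 0.174 on 10, limma). That of Yars was −0.12 (SE 0.0802, adjusted p = 0.675 on 12 libraries; SE 0.0673, adjusted p = 0.249 on 10, limma). Without HBSS replicate 1 the difference of Wars came to −0.11 and that of Yars to −0.043, and Yars was at −0.060 with the exon length trend removed and −0.19 with quantile normalization. Aars, which charges alanine, measured 62.8, 50.2 and 57.3 FPKM at 100 µM, against 76.4, 62.7 and 59.8 FPKM in HBSS, an overlap by treated replicate 1 alone. Its log2 difference was −0.22 (SE 0.135, adjusted p = 0.669 on 12 libraries; SE 0.115, adjusted p = 0.217 on 10, limma), and 14.3% of its exon bases are shared with Exosc6 on the same strand. Without HBSS replicate 1 and with the exon length trend removed it came to −0.11 each, and without replicate 2 at 100 µM to −0.13.

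Iars, for isoleucine, measured 50.8, 41.1 and 44.0 FPKM at 100 µM, against 57.5, 50.2 and 50.4 FPKM in HBSS. Lars, for leucine, measured 61.4, 52.1 and 53.7 FPKM at 100 µM, against 74.5, 61.2 and 60.3 FPKM in HBSS. Eprs, the fused glutamyl- and prolyl-tRNA synthetase, measured 41.7, 35.01 and 36.5 FPKM at 100 µM, against 49.7, 41.5 and 40.1 FPKM in HBSS. In each of these the treated replicate 1 reached into the HBSS range. Iars, Lars and Eprs belong to the multi-synthetase complex of the cytosol, and so do Kars, Qars, Mars1, Rars and Dars. Kars, for lysine, measured 50.9, 54.3 and 55.2 FPKM at 100 µM, against 51.2, 51.2 and 51.6 FPKM in HBSS. Qars, for glutamine, measured 28.6, 29.6 and 27.5 FPKM at 100 µM, against 26.0, 26.8 and 27.4 FPKM in HBSS. Hars, for histidine, measured 55.4, 57.4 and 56.4 FPKM at 100 µM, against 48.4, 54.6 and 52.1 FPKM in HBSS. Qars and Hars were the members whose treated libraries were each higher than every HBSS library. Of the exon bases of Hars, 7.97% lie over its opposite-strand neighbour Hars2.

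Mars1, which charges methionine, averaged 37.9 ± 0.626 FPKM at 100 µM and 39.1 ± 1.504 FPKM in HBSS. Rars averaged 132 ± 5.59 FPKM at 100 µM and 134 ± 5.04 FPKM in HBSS, and Dars, for aspartate, 52.4 ± 0.822 FPKM at 100 µM and 51.7 ± 1.08 FPKM in HBSS. The phenylalanyl enzyme has a pair of subunits: Farsa averaged 17.1 ± 1.10 FPKM at 100 µM and 15.2 ± 2.09 FPKM in HBSS, and Farsb 75.5 ± 2.06 FPKM at 100 µM and 75.1 ± 3.15 FPKM in HBSS. Gars averaged 195 ± 7.45 FPKM at 100 µM and 207 ± 16.1 FPKM in HBSS, and Nars 138 ± 11.4 FPKM at 100 µM and 157 ± 20.4 FPKM in HBSS. Cars, for cysteine, averaged 31.0 ± 1.86 FPKM at 100 µM and 34.0 ± 3.30 FPKM in HBSS, and Sars, for serine, 107 ± 4.93 FPKM at 100 µM and 111 ± 12.6 FPKM in HBSS. The highly expressed glycyl and asparaginyl enzymes thus differed by about the spread of their HBSS libraries. Tars, for threonine, averaged 51.1 ± 3.22 FPKM at 100 µM and 53.9 ± 2.20 FPKM in HBSS, and Vars, for valine, 58.4 ± 3.34 FPKM at 100 µM and 59.1 ± 0.938 FPKM in HBSS (SD, n = 3 for each group). All of these overlapped between the groups.

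In all, 7 members had every library at 100 µM below every HBSS library (Slc38a2, Slc1a4, Slc7a1, Slc7a5, Mthfd1l, Wars and Yars), or 19.4% of the 36, against 17.6% of all genes tested. The 2 members with every library higher, Qars and Hars, were 5.56% of the 36, against 16.5% of all genes. The share of members separated downward was thus close to that of all genes, and 4 of the 7 were transporters. On 10 libraries 6 members had an unadjusted p under 0.05 (Slc38a2, Slc1a4, Slc7a1, Slc7a5, Iars and Hars), where 32.2% of all genes did. Quantile normalization moved the members' median to −0.18, that of synthesis to −0.19 and that of synthetases to −0.16. Leaving out HBSS replicate 1 moved the members' median to −0.044, transport to −0.17, synthesis to −0.053 and synthetases to −0.018. Leaving out replicate 2 at 100 µM moved transport to −0.17 and synthetases to −0.041, and leaving out HBSS replicate 3 moved the members' median to −0.13 and synthetases to −0.11. The medians of the 3 roles lay below 0 under all 28 settings run, but many of these settings could not move them. Fitting the compared groups alone, adding the replicate block or dropping the mean-variance trend of limma left the differences as they were. So did leaving out only cell media libraries or a library of the lower dose. The sign under those settings was fixed beforehand and adds no support.

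**Figure D3:**
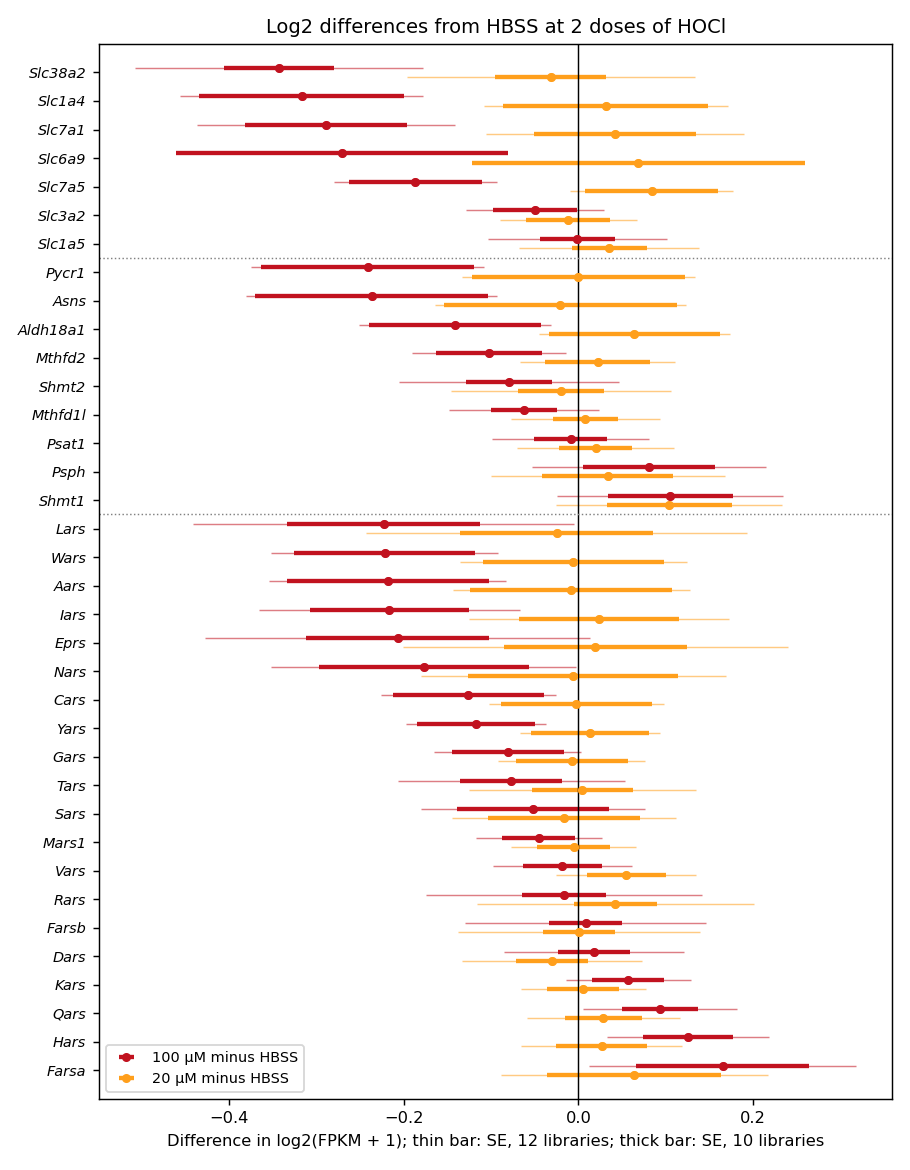
Log2 difference from HBSS of each member (rows, by role) at 100 µM (red) and 20 µM (orange) on the log2(FPKM + 1) scale; thin bars are the SE from 12 libraries and thick bars that from 10. The red points of the transporters lie left of 0 or, for Slc1a5, almost on it, the lowest at −0.34 for Slc38a2, and the orange points stay between −0.032 and 0.10.

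HBSS replicate 1 was the highest HBSS library in 25 of the 36 members (69.4%), against 36.9% of all genes. In 17 members (47.2%, against 18.3% of all genes) replicate 1 was the highest in HBSS, at 20 µM and at 100 µM alike. These were Asns, Aldh18a1, Pycr1, Slc7a1, Slc1a4, Slc38a2, Slc6a9, Aars, Cars, Eprs, Iars, Lars, Mars1, Nars, Sars, Tars and Wars, and they include 8 of the 10 members given above with a log2 difference. Without HBSS replicate 1 the members' median at 100 µM against HBSS was −0.044, against −0.080 with it.

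Members that hold the TGATGNAA letters had a median log2 difference of −0.22 at 100 µM against HBSS, and 8 of 8 lay below 0. The 19 members with a window but without the letters had a median of −0.050 (12 of 19 below 0), and the 9 members with no window here had −0.13 (8 of 9 below 0). Among all tested genes with a window, the 227 that hold the letters had a median of −0.057, with 62.1% below 0, and the 7933 that do not had −0.011, with 52.3% below 0. Of the 8 members with the letters, only Slc1a4 and Yars were separate between the groups. Asns, Pycr1, Aars, Gars, Iars and Tars overlapped. Slc38a2 and Slc7a1, with differences of −0.34 and −0.29, had no match in their windows. At 20 µM the median of the 8 was 0.0022, with 4 of 8 below 0. Asns, Pycr1, Slc1a4, Aars, Iars and Tars, which hold the letters, had replicate 1 highest in HBSS and at both doses. So did Slc7a1, Slc38a2 and Slc6a9, which lack them. Without HBSS replicate 1 the 100 µM differences of Asns, Aars and Yars came to −0.099, −0.11 and −0.043, and that of Slc6a9 to −0.12. Whether the letters bear on the levels was not tested.

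**Figure D4:**
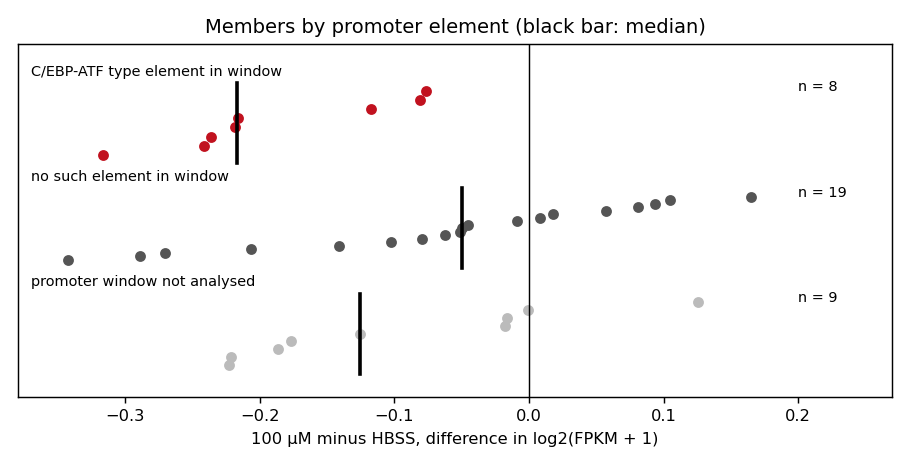
Log2 difference at 100 µM against HBSS of each member, placed by whether its promoter window holds TGATGNAA; the black bar is the median of each row. The 8 members with the letters all lie left of 0, around −0.22, and the 19 without them lie on both sides, around −0.050.

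At 20 µM the members lay close to their levels in HBSS. The median log2 difference was 0.011, beside 0.0057 over all genes, and the members ranged from −0.032 to 0.10, with 14 of 36 below 0 (38.9%, against 46.1% of all genes). No member was called by limma on 12 or 10 libraries, and neither was any gene tested (0%); at an unadjusted p under 0.05 there were 0 members, against 1.08% of all genes on 12 libraries and 3.08% on 10.

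The 5 members with the smallest p at 20 µM were all slightly above HBSS. Slc7a5 measured 72.2, 70.5 and 65.9 FPKM at 20 µM, against 67.3, 63.8 and 65.6 FPKM in HBSS, with overlap and a log2 difference of 0.084 (95% interval −0.12 to 0.29). Shmt1 measured 10.00, 10.8 and 11.9 FPKM at 20 µM, against 9.15, 10.2 and 10.8 FPKM in HBSS, a difference of 0.10 (−0.18 to 0.39). Vars measured 61.5, 61.2 and 61.8 FPKM at 20 µM, against 60.2, 58.4 and 58.8 FPKM in HBSS, a difference of 0.055 (−0.12 to 0.23). Vars was the single member whose 20 µM libraries were all higher than the HBSS ones, 2.78% of the 36 against 4.21% of all genes, and no member had every library lower, against 3.48% of all genes. Aldh18a1 differed by 0.064 (−0.18 to 0.31) and Farsa by 0.064 (−0.27 to 0.40); with a library left out, Shmt1 ranged from 0.044 to 0.16, Aldh18a1 from 0.0071 (without HBSS replicate 3) to 0.15, and Farsa from −0.046 (without HBSS replicate 1) to 0.13. Each of the 5 had an adjusted p of 0.9999 by limma on 12 libraries. The intervals give the differences that these libraries allow, and the high p does not show that the levels are alike.

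The doses were also compared directly. At 100 µM against 20 µM the members' median log2 difference was −0.077, beside −0.017 over all genes, and 28 of 36 (77.8%) lay below 0, against 53.8% of all genes. The transporters again lay below 0 in 7 of 7. No member and no gene tested was called by limma (0% on 12 libraries and on 10), and 3 members had an unadjusted p under 0.05 on 12 libraries (Slc7a5, Slc1a4 and Slc7a1), against 4% of all genes. On 10 libraries there were 5, with Slc38a2 and Iars besides, against 26.2% of all genes. Since both doses were also set against the same HBSS libraries, and this comparison uses the same 100 µM libraries, it is not independent of the one above.

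Slc7a5 measured 59.1, 50.7 and 63.3 FPKM at 100 µM, against 72.2, 70.5 and 65.9 FPKM at 20 µM, a log2 difference of −0.27 (SE 0.0934, adjusted p = 0.825 on 12 libraries; SE 0.0765, adjusted p = 0.124 on 10, limma). Slc1a4 measured 9.94, 7.27 and 9.31 FPKM at 100 µM, against 12.2, 12.1 and 10.2 FPKM at 20 µM, a difference of −0.35 (SE 0.139). Slc7a1 measured 23.7, 18.8 and 19.5 FPKM at 100 µM, against 27.9, 26.5 and 24.1 FPKM at 20 µM, a difference of −0.33 (SE 0.148). In these carriers each library at 100 µM was lower than each at 20 µM. Without replicate 2 at 100 µM the difference of Slc1a4 came to −0.23, and Slc7a1 was at −0.20 with the exon length trend removed. Slc38a2 measured 53.8, 46.0 and 52.1 FPKM at 100 µM, against 64.6, 64.0 and 60.2 FPKM at 20 µM, a difference of −0.31 (SE 0.165), also without overlap. Aldh18a1 measured 43.3, 35.1 and 41.1 FPKM at 100 µM, against 49.2, 45.8 and 42.9 FPKM at 20 µM, a difference of −0.21 (SE 0.110), with overlap, and −0.12 without replicate 2 at 100 µM. Their adjusted p was 0.825 in each case on 12 libraries, and 0.135, 0.124, 0.124 and 0.215 on 10 in the order Slc1a4, Slc7a1, Slc38a2 and Aldh18a1. In all 8 members were separated downward (22.2%, against 15.6% of all genes), the 7 named for HBSS and Mthfd2, and Hars was separated upward (2.78%, against 12.7%).

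The vehicle was set against cell media, which differs from it by the hour without medium. The members' median log2 difference in HBSS was −0.039, beside 0.10 over all genes, and 20 of 36 lay below 0, against 38.8% of all genes. The order turned with quantile normalization, where the members' median was 0.089 and that of all genes 0.023. No member was called, where 2 of 12026 genes (0.0166%) were, and 12 members had an unadjusted p under 0.05, where 40% of all genes did. Without cell media replicates 1 and 2 the members' median was −0.16, beside −0.014 over all genes, with 0 called and 3 members (Pycr1, Mthfd2 and Slc38a2) at an unadjusted p under 0.05, against 6.84% of all genes; the cell media group is then a single library assumed to vary like the others.

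Pycr1 measured 3.43, 2.99 and 2.58 FPKM in HBSS, against 5.80, 4.60 and 4.44 FPKM in cell media, a log2 difference of −0.57 (SE 0.134, adjusted p = 0.0711, limma). All 3 libraries in HBSS were lower than all 3 in cell media, and against cell media replicate 3 alone the difference was −0.45 (adjusted p = 0.644). Sars measured 124, 109 and 99.3 FPKM in HBSS, against 176, 169 and 128 FPKM in cell media, a difference of −0.50 (SE 0.128) that was −0.22 against replicate 3 alone. Shmt2 measured 123.5, 113 and 113 FPKM in HBSS, against 189, 176 and 128 FPKM in cell media, a difference of −0.48 (SE 0.126) that was −0.14 against replicate 3 alone. For all of these genes the difference was smaller without the pair of libraries that stood apart.

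Hars and Mthfd1l lay the other way. Hars measured 48.4, 54.6 and 52.1 FPKM in HBSS, against 36.7, 40.6 and 47.0 FPKM in cell media, a difference of 0.32 (SE 0.0924) that was 0.13 against replicate 3 alone. Mthfd1l measured 20.1, 19.3 and 20.7 FPKM in HBSS, against 15.4, 14.9 and 19.0 FPKM in cell media, a difference of 0.28 (SE 0.0856) that was 0.072 against replicate 3 alone. The adjusted p of Sars, Shmt2, Hars and Mthfd1l was 0.0711 each by limma on 12 libraries, and between 0.644 and 0.680 on 10. In all, 5 members were separated downward (Sars, Mthfd2, Shmt2, Pycr1 and Vars; 13.9%, against 8.91% of all genes) and 3 upward (Farsb, Mthfd1l and Hars; 8.33%, against 12.7%). Cell media replicates 1 and 2 lay below all other 10 libraries in 11 members (30.6%, against 37.2% of all genes) and above them in 4 (11.1%, against 19.3%). Asns, the classical marker of amino acid shortage, measured 130.3, 102 and 93.3 FPKM in HBSS, against 143, 115 and 137 FPKM in cell media, with overlap.

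Other genes of amino acid handling were read from lists named in the same way, for 100 µM against HBSS on 12 libraries, and none of their genes was called. Regulators and targets of amino acid sensing and the integrated stress response had the lowest median, −0.16 over 19 genes, of which 17 lay below 0. Ddit3, the stress factor CHOP, measured 16.1, 14.2 and 15.7 FPKM at 100 µM, against 26.5, 24.0 and 22.6 FPKM in HBSS, a log2 difference of −0.64 (SE 0.114, adjusted p = 0.374, limma). Chac1, a glutathione-degrading ATF4 target, measured 8.57, 7.03 and 9.22 FPKM at 100 µM, against 9.84, 14.1 and 16.2 FPKM in HBSS, a difference of −0.61 (SE 0.195). Of the 19 genes, 6 had every library at 100 µM below every HBSS library (31.6%, against 17.6% of all genes): Ddit3, Chac1, Cebpg, Nupr1, Ppp1r15b, a subunit of the eIF2 phosphatase (−0.33, SE 0.0953), and the leucine sensor gene Sesn2 (−0.20, SE 0.0777). The adjusted p of Chac1 and Ppp1r15b was 0.602 and that of Sesn2 0.625, by limma on 12 libraries. The errors of this list were also wider on 12 libraries, with a median SE of 0.143, against 0.0881 on 10. Its median difference was −0.16 on each.

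The transporters outside the members had a median of −0.078 over the 17 of 23 that passed the filter, with 12 below 0. Slc36a1, a lysosomal amino acid exporter, measured 13.0, 11.8 and 10.3 FPKM at 100 µM, against 14.9, 14.5 and 15.0 FPKM in HBSS, and Slc38a7 measured 11.8, 9.43 and 10.9 FPKM at 100 µM, against 15.6, 12.6 and 12.1 FPKM in HBSS. Slc7a7 lay the other way, at 7.46, 7.26 and 8.498 FPKM at 100 µM, against 4.45, 6.78 and 6.73 FPKM in HBSS. Mitochondrial tRNA synthetases had a median of −0.019 over 17 genes (10 below 0), with Aars2 the lowest p (−0.19, SE 0.0692, adjusted p = 0.625, limma). Scaffold proteins and charging helpers stood at 0.094 over 9 genes (2 below 0) and other amino acid and folate enzymes at 0.072 over the 25 of 29 that passed (6 below 0). In HBSS against cell media, Ddit3 fell and was the single gene of these lists called, at 26.5, 24.0 and 22.6 FPKM in HBSS against 55.7, 47.3 and 49.0 FPKM in cell media (log2 difference −1.02, adjusted p = 0.0284, limma on 12 libraries). Against cell media replicate 3 alone the difference was −0.98 (adjusted p = 0.372), so the call ended. Its exons overlap those of Mars1 on the opposite strand by 1.99% of the exon bases of Mars1.

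**Figure D5:**
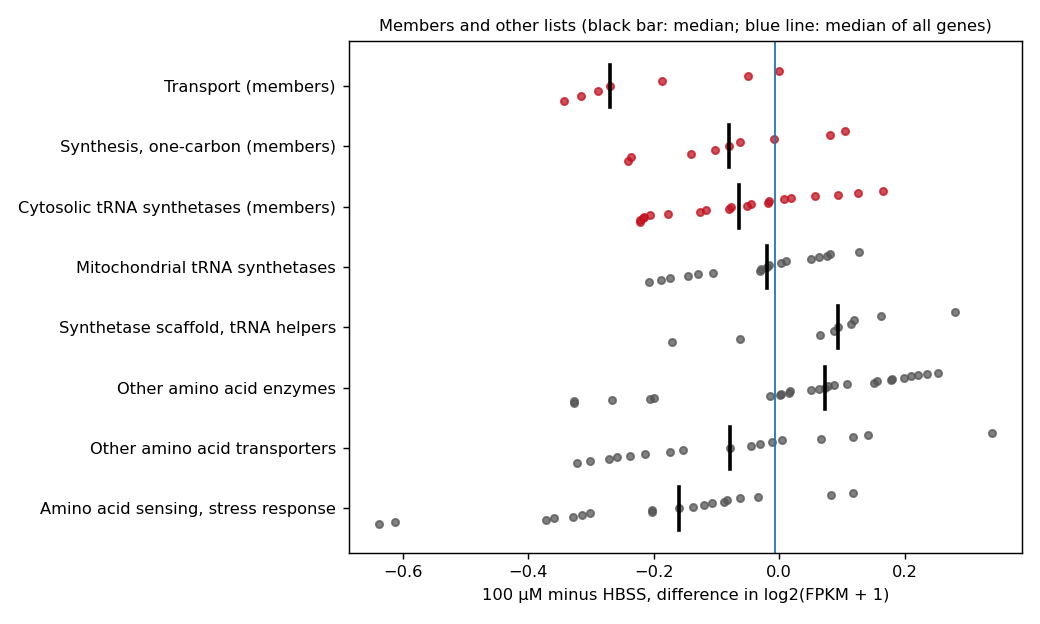
Log2 difference at 100 µM against HBSS of each gene, for the 3 roles of the members (red) and 5 other lists (grey); black bars are medians and the blue line is the median of all genes tested, −0.0063. The lowest of these medians are those of the transporters (−0.27) and of the sensing and stress response list (−0.16).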

How the data were processed

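The authors deposited FPKM per gene for 12 libraries, which per the submitters' processing notes came from HISAT2 and featureCounts on the GRCm39 build. Their versions and strand setting are not given in the sources used here. Sequencing instruments of more than 1 make are named in the labels with no link to libraries, so a batch by instrument could not be tested. All 12 columns were matched to samples. Symbols and exon lengths came from GENCODE M21, for 28302 of 28977 IDs. Multiplied by exon length, 98.3% of values below 1 FPKM were whole reads within 0.01, which gave the reads per library and an alternative test (limma-voom) that called 0 genes in each comparison involving HOCl and 4 in HBSS against cell media.

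Genes with FPKM of at least 1 in at least 3 libraries were kept (12026). Differences are on the log2(FPKM + 1) scale, which understates changes of low genes. They were fitted with limma 3.58.1 in R 4.3.3 (mean-variance trend, 1 mean per group, two-sided, Benjamini-Hochberg over all kept genes, adjusted p under 0.05). The code was also run on simulated data. The changes simulated were larger than those of the members at 100 µM against HBSS, so that run does not bear on differences of their size. Tables and figures were made in Python 3.11.15 with pandas 2.3.3 and matplotlib 3.10.9. Members and lists were chosen with earlier results of these data known. Differences are given for the 10 members with the smallest p in 100 µM HOCl against HBSS and the 5 in each other comparison, and for up to 4 genes of each other list; the HBSS against cell media value of Ddit3 was chosen after its values were seen. Alternatives changed the pseudocount, filter, scaling, model, libraries and length trend.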

Additional observations from a re-analysis of the deposited data

How the results depend on the processing

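Results were recomputed under 28 settings, the reported one included, of which 12 leave out 1 library each; the filter on a mean of 5 FPKM removed Pycr1 and Slc6a9, which have 27. The labels do not say that replicate numbers pair the libraries, and in no comparison did deviations of same-numbered libraries correlate above 0.1 for all 3 numbers. The correlations for numbers 1, 2 and 3 were 0.264, 0.075 and −0.0254 for 100 µM and HBSS, and 0.351, −0.0623 and 0.123 for 20 µM and HBSS. They were 0.377, 0.0546 and 0.414 for 100 µM and 20 µM, and −0.0257, 0.346 and 0.0315 for HBSS and cell media. Among HBSS and both doses, each library was also set against the 3 libraries of each other group. In 10 of 18 such comparisons it correlated best with its own number. Whether libraries of the same number share an effect was not tested. With the replicate number as a block on 10 libraries, 7 members were called in 100 µM against HBSS (24.8% of all genes, 2979, were), among them Slc38a2, Slc7a1 and Wars (adjusted p = 0.0151, 0.0177 and 0.0464, limma), and 7 in 100 µM against 20 µM (17.4%, 2088), among them Slc7a1, Slc38a2, Slc7a5 and Slc1a4 (adjusted p between 0.0276 and 0.0498, limma). With the block on 12 libraries, 2 members, Pycr1 and Sars, were called in HBSS against cell media (1.6% of all genes, 193; adjusted p = 0.0435 and 0.0452, limma).

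The members' median in 100 µM against HBSS was −0.18 with quantile normalization on 12 and on 10 libraries, and −0.13 to −0.044 with a library left out. In 100 µM against 20 µM it was −0.17 and −0.16 with quantile normalization, and −0.12 to −0.061 with a library left out. Its sign was not stable in 20 µM against HBSS: −0.0052 and −0.0051 with quantile normalization on 12 and 10 libraries, and −0.018 to 0.061 with a library left out. The medians of the roles turned there too. Synthesis was at −0.0037 and −0.0036 with quantile normalization and ranged from −0.0029 to 0.046 with a library left out, transport ranged from −0.0027 to 0.097, and synthetases were at −0.0063 with median-of-ratios scaling, −0.013 and −0.012 with quantile normalization, and −0.028 to 0.061 with a library left out. Farsa ranged from −0.046 to 0.13.

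HBSS against cell media moved most. The members' median was −0.16 with median-of-ratios scaling and on 10 libraries, −0.17 on 10 with the replicate block, −0.16 on 10 with the exon length trend removed, −0.20 on 10 with quantile normalization, 0.089 with quantile normalization on 12, and −0.075 to 0.028 with a library left out. Median-of-ratios scaling also moved the median of all genes to 0.0069, against 0.10 as deposited. Synthesis was at −0.28 with median-of-ratios scaling, −0.25 without HBSS replicate 1 and −0.052 after quantile normalization. Transport was at −0.20 on 10 libraries, −0.22 on 10 with the block, −0.19 on 10 with the length trend removed and −0.20 on 10 with quantile normalization, but turned to 0.074 under the filter on a mean of 5 FPKM and 0.13 with quantile normalization, and ranged from −0.070 to 0.037. Synthetases turned to −0.11 with median-of-ratios scaling, −0.13 on 10 libraries, −0.17 on 10 with the block, −0.15 with the length trend removed, −0.17 with quantile normalization on 10, and −0.0073 with limma-voom, and ranged from −0.025 to 0.067. Between 0 and 19 of the 36 members were called with a library left out. The 19 came without cell media replicate 3, when 7852 of 12026 genes were called, a larger share than among the members. The 10-library settings with the length trend removed or with quantile normalization were chosen after seeing the data. The causes of these shifts were not tested.

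Genes called, over all genes and settings, ranged from 0 to 2979 in 100 µM against HBSS, 0 to 6 in 20 µM against HBSS, 0 to 2088 in 100 µM against 20 µM and 0 to 7852 in HBSS against cell media. With 3 libraries a group, members below 5 FPKM such as Psph, Pycr1 and Slc6a9 also carry the most counting error.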
